A study of Mus musculus with 10 samples.

Results

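The Reg genes encode small secreted C-type lectins. The 5 genes described here, Reg1, Reg3a, Reg3b, Reg3g and Reg4, were found by symbol in the deposited expression table, and all 5 were present among its 23969 gene symbols. All 5 also passed the filter on low values (at least 1 FPKM in at least 2 libraries), which kept 11454 genes. Reg3a passed only through the LGR5-ECD libraries, so it had to differ between groups once it was tested. The table also lists the other mouse Reg genes. Of these, Reg2 was listed at 0 in each of the 8 libraries and Reg3d was at or below 0.650 FPKM, and neither was tested.

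Reg proteins were first described in regenerating and inflamed pancreas and are also made by the intestinal epithelium. Reg3g and Reg3b are antibacterial lectins of the small intestine, Reg3g acting mainly on Gram-positive bacteria, and both are induced through the interleukin-22 receptor, STAT3 and the microbial adaptor MyD88. Reg1 was first known as a protein of pancreatic juice. Reg4 is a more distant relative, found in secretory cells of the crypt, and in the mouse colon it marks cells that sit between the stem cells.

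The mice carried Lgr5-eGFP-IRES-CreER, a reporter driven by Lgr5, the gene of an R-spondin receptor that marks crypt base stem cells, and cells were taken from their proximal jejunum. The cells compared were sorted as GFP-positive after an intravenous adenovirus that carried Fc (control, 2 libraries), the LGR5 extracellular domain (LGR5-ECD, labelled as Rspo loss of function, 3 libraries) or Rspo1 (labelled as Rspo gain of function, 3 libraries). The labels state no further strain detail, age, sex, dose or time after injection. The control libraries were read as GFP-positive Fc cells from the series text, because their column names give neither sort nor sample. Replicates are called biological by the series text. The sort depends on the locus of a gene that the treatments move: Lgr5 was at 40.6 and 22.0 FPKM in the controls, at 2.84 to 8.31 FPKM in LGR5-ECD and at 96.4 to 112.7 FPKM in Rspo1. Rspo1 itself was listed at 0 in each of the 8 libraries.

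FPKM values are corrected for gene length, so levels can be compared between genes, but the read totals behind them are unknown. The fewest genes above 0 were found in LGR5-ECD replicate 3, with 11485, and the remaining 7 libraries had 13417 to 14197. Marker genes of other epithelial cells were detected in every group. The summed level of 20 enterocyte markers was 555 to 1768 FPKM per library, and that of 21 Paneth cell markers 205.6 to 7712 FPKM. In control 2, which had the lowest Paneth sum, 111.8 FPKM of it came from 1 marker, Cd24a. Bulk RNA does not show which cells held these transcripts. The summed immune markers reached at most 20.1 FPKM. In such bulk samples, fewer cells of a type and less RNA per cell cannot be told apart. Changes are given on the log2(FPKM + 1) scale, from limma over all 8 libraries, and a gene is called where the p adjusted over the 11454 genes is under 0.05.

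Of the 7 mouse Reg genes in the table, 6 lie side by side on chromosome 6, in the order Reg3b, Reg3d, Reg3a, Reg2, Reg1 and Reg3g, and Reg4 lies alone on chromosome 3 (order from RefSeq, assembly GRCm38.p6, a later build than the mm9 of the files). In GENCODE M21 transcripts, the open reading frame of Reg3b was 76.4% identical to that of Reg3g and 75.2% to that of Reg3a, against 59.8% for Reg4. Reg3b and Reg3g transcripts shared 11 of 759 stretches of 25 bases and 0 of 734 stretches of 50 bases, and no other pair of the 7 genes shared a stretch of 25 bases. The labels state no read length, so some short reads could be placed on either of Reg3b and Reg3g.

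The 250 bases before the start of each of the 5 genes are shown because Reg3a, Reg3b and Reg3g are the most alike in this stretch. Reg3b and Reg3g were 70.0% identical there, Reg3a and Reg3g 71.9%, and Reg3a and Reg3b 69.9%. The contrast with other pairs is small. Reg3d was 62.0% to 64.4% identical to these 3 genes, Reg2 and Reg3a were 68.7% identical, and Reg3g and Reg4 60.9%. The calls below differ between the genes, but whether their changes differ from each other was not tested. Sequences are from RefSeq, build GRCm38.p6, on the strand of the gene. They cover chr6:78380459-78380708 (plus strand) for Reg3a, chr6:78370635-78370884 (plus) for Reg3b, chr6:78468875-78469124 (minus) for Reg3g, chr6:78425733-78425982 (plus) for Reg1 and chr3:98221906-98222155 (plus) for Reg4. Capitals mark matches, on either strand, to the letters of a STAT site (TTCNNNGAA), of the core recognised by the Wnt effectors TCF and LEF (CTTTGAT), or of the E-boxes CAGCTG and CAGATG.
Reg3a: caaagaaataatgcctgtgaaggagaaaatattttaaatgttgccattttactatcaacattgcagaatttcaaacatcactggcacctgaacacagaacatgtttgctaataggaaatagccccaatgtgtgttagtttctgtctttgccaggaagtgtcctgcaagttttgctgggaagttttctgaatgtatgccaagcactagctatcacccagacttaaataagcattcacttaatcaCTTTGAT
Reg3b: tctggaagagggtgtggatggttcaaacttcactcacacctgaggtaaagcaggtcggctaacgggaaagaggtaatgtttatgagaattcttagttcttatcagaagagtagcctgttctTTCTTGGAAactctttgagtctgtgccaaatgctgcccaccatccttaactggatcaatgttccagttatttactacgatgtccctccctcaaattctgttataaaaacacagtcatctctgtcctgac
Reg3g: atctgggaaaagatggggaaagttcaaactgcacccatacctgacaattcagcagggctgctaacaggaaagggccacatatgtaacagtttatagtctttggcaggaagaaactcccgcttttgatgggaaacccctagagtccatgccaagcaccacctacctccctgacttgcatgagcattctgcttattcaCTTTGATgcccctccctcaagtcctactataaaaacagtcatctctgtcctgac
Reg1: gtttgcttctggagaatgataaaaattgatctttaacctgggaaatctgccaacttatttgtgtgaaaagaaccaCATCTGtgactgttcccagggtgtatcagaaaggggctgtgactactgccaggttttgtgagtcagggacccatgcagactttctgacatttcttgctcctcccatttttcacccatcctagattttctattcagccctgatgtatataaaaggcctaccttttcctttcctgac
Reg4: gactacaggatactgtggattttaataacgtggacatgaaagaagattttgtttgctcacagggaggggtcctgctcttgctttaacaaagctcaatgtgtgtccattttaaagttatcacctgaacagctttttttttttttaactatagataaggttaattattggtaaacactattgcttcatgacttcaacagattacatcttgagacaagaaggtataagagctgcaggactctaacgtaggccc
The letters CTTTGAT stood 7 bases before the start of Reg3a and 54 bases before that of Reg3g, and 3.21% of 32851 promoter windows of this length held them. Only Reg3b among the 5 held the STAT letters (TTCTTGGAA, 129 bases before the start), which 7.02% of windows held. Reg1 held a single E-box match, CATCTG, the reverse complement of CAGATG (14.4% of windows), and the window of Reg4 held none of the 4 motifs (CAGCTG was in 13% of windows). A match of letters is not a site.

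Reg3g was the most abundant member in all 8 libraries. Its level was 63.7 and 72.9 FPKM in the controls, 92.6, 291.4 and 429.1 FPKM in LGR5-ECD and 54.6, 198.3 and 213.7 FPKM in Rspo1. Among the 11454 tested genes it ranked 54 in LGR5-ECD replicate 3, its highest place, and 689 in Rspo1 replicate 1, its lowest. Reg3b was the second member in 7 libraries, and Reg4 took that place in Rspo1 replicate 1. Together Reg3b and Reg3g made up between 65.3% and 96.7% of the summed FPKM of the family. Reg3a was the lowest, or level with Reg4 at 0 in control 2.

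**Figure D1:**
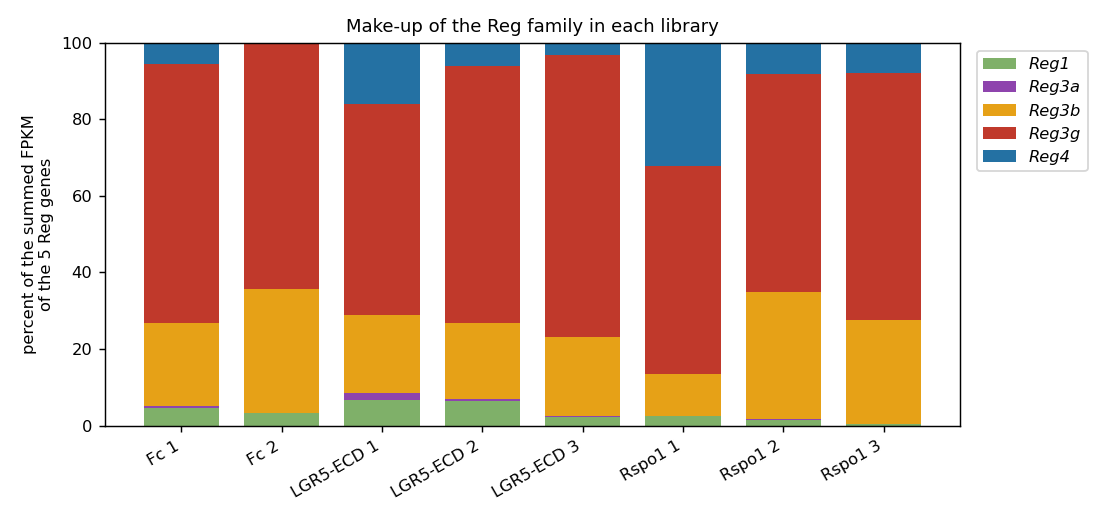
Share of each gene in the summed FPKM of the 5 Reg genes, 1 bar per library. Reg3g holds the largest share in every library (54.4% to 73.7%), and Reg4 holds 32.2% in Rspo1 replicate 1 and 0% in control 2.

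Reg1 and Reg3a were lower in Rspo1 than in LGR5-ECD cells. This comparison set R-spondin gain against loss of function. Of all genes tested, 8.45% were called in it and 3.54% were called lower in Rspo1. Another 4.92% were called higher. Among the 5 Reg genes 2 were called, both lower in Rspo1, and the median change of the 5 was -0.77 against 0.08 for all tested genes. Of these 2, Reg3a passed the filter only through the LGR5-ECD libraries, which favoured this direction in advance. The count and the median are therefore description only.

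Reg1 was at 11.3, 27.9 and 12.9 FPKM in the LGR5-ECD libraries and at 2.44, 4.89 and 1.08 FPKM in the Rspo1 libraries. All 3 LGR5-ECD values lay above all 3 Rspo1 values, a lack of overlap that 31% of tested genes showed in either direction and 12.1% in this one. The means were 17.4 ± 9.17 and 2.80 ± 1.93 FPKM (SD, n = 3 each), 6.20-fold higher in LGR5-ECD, with a log2 change of -2.29 (SE 0.41, limma adjusted p = 0.00743). The call was kept without each library in turn, with log2 changes from -2.67 to -1.91.

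Reg3a, a low-abundance member of the REG3 group, was at 2.98, 2.09 and 2.42 FPKM in LGR5-ECD. It was listed at 0 in Rspo1 replicates 1 and 3 and stood at 0.786 FPKM in replicate 2. The groups did not overlap, and the log2 change was -1.52 (SE 0.33, limma adjusted p = 0.0173). That call was lost without LGR5-ECD replicate 1 (adjusted p = 0.0525), Rspo1 replicate 1 (0.0746) or Rspo1 replicate 3 (0.0828), and with a pseudocount of 0.1 (0.0784). Since Reg3a entered the test only because it was above 1 FPKM in LGR5-ECD, its call adds no support to that of Reg1.

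Reg3b and Reg3g were not called. Reg3b was at 34.4, 85.5 and 119.2 FPKM in LGR5-ECD and at 11.0, 115.4 and 90.4 FPKM in Rspo1. Both groups held a library with a low level, replicate 1 in each, and the groups overlapped for Reg3b and for Reg3g. The log2 change of Reg3b was -0.51 with a 95% interval from -2.17 to 1.15 (limma adjusted p = 0.742), and it turned to 0.52 without Rspo1 replicate 1. For Reg3g it was -0.77 with an interval from -2.06 to 0.53 (adjusted p = 0.485). Without 1 library the Reg3g change ranged from -1.41 (without LGR5-ECD replicate 1) to -0.14 (without Rspo1 replicate 1). The Reg3b interval includes changes of more than 2-fold in either direction, and the Reg3g interval in the direction of LGR5-ECD.

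Reg4 had nearly the same level after both treatments. It was at 26.9, 26.1 and 18.7 FPKM in LGR5-ECD and at 32.4, 28.3 and 25.9 FPKM in Rspo1, with overlapping groups. The log2 change was 0.27, with a 95% interval from -0.87 to 1.41 (limma adjusted p = 0.804), which does not show that the levels are equal.

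**Figure D2:**
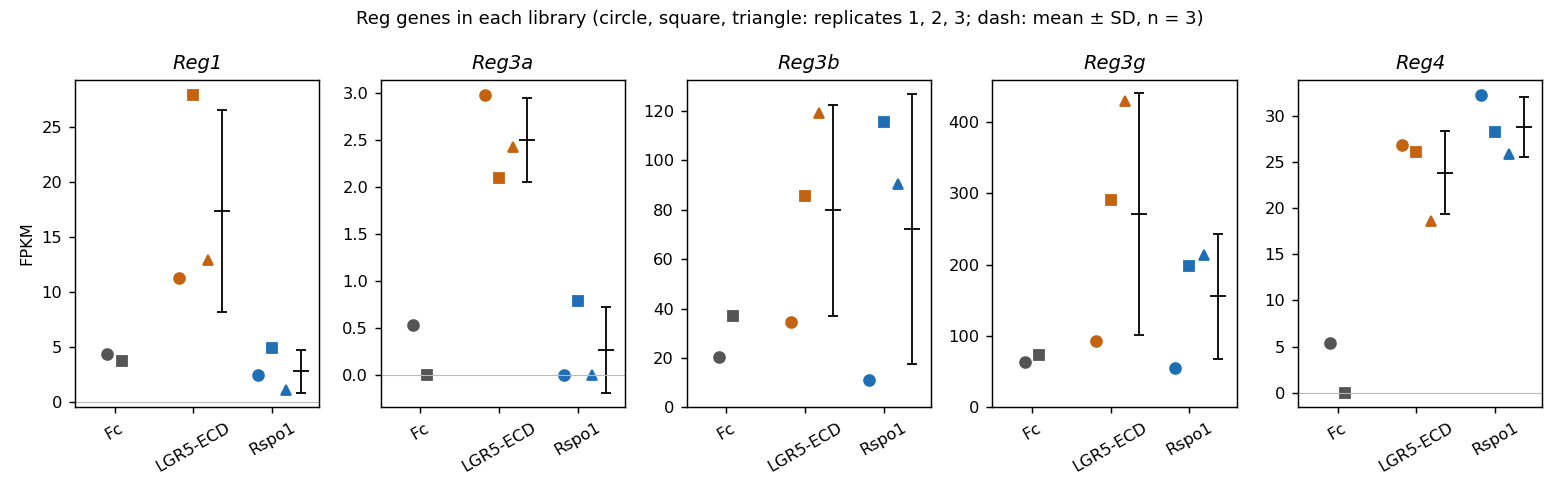
FPKM of the 5 Reg genes in each library, a panel per gene with its own linear scale. Circles, squares and triangles are replicates 1, 2 and 3, and dashes with bars are means ± SD of the groups of 3. Reg1 and Reg3a are highest in the 3 LGR5-ECD libraries, Reg4 is lowest in the 2 controls, and replicate 1 of either treatment is the low library for Reg3b and Reg3g.

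Against the Fc control, Reg4 was higher in Rspo1 cells and no other Reg gene was called. Of all genes tested, 1.25% were called in this comparison and 0.672% were called higher in Rspo1. The control libraries, shown apart, held Reg4 at 5.33 FPKM and at 0. Every Rspo1 library was at 25.9 FPKM or more, above both controls. Of all tested genes, 38.2% had groups that did not overlap in this comparison, 26.2% with Rspo1 higher. The mean was 28.8 ± 3.27 FPKM in Rspo1 (SD, n = 3), and the log2 change was 3.56 (SE 0.58, limma adjusted p = 0.0216). Against control 1 alone the log2 change was 2.23 (adjusted p = 0.0291) and against control 2 alone 4.89 (adjusted p = 0.000113). These fits assume that the lone control varies like the treated libraries, and the size of the second is set by the pseudocount, since control 2 lists Reg4 at 0. The call was lost without Rspo1 replicate 1, 2 or 3, with adjusted p between 0.0697 and 0.0896. It was also lost with a pseudocount of 0.1 (0.0886) and with no filter (0.0900).

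The other members showed smaller differences from the control. Reg1 was at 4.33 and 3.69 FPKM in the controls, inside the range of the Rspo1 libraries (log2 change -0.52, 95% interval -1.54 to 0.49, limma adjusted p = 0.597). Reg3a was at 0.530 FPKM and at 0 in the controls (log2 change -0.03, interval -0.83 to 0.78, adjusted p = 0.981). For Reg3b, at 20.4 and 36.9 FPKM in the controls, the log2 change was 0.82 (interval -1.03 to 2.67, adjusted p = 0.657), and it ranged from 0.22 without Rspo1 replicate 2 to 1.86 without Rspo1 replicate 1. Rspo1 replicate 1 lay below both controls and the other Rspo1 libraries above them, for Reg3b as for Reg3g. The Reg3g change was 0.95 (interval -0.50 to 2.40, adjusted p = 0.488), and 1.58 without Rspo1 replicate 1.

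In LGR5-ECD cells all 5 Reg genes had a positive change relative to the control, and Reg4 alone was called. The control libraries are the same as in the comparison before, so the levels are not independent of it. In this comparison 0.716% of all genes were called, and 0.445% were called higher in LGR5-ECD. Reg4 was at 18.7 FPKM or more in each LGR5-ECD library, above both controls (log2 change 3.29, SE 0.58, limma adjusted p = 0.0442). Without control 2 the change was 1.96 and the call was lost (adjusted p = 0.0637). It was also lost without LGR5-ECD replicate 1 (0.0530) or replicate 2 (0.111) and without Rspo1 replicate 1, 2 or 3 (0.0794 to 0.0926). Of 9 other settings 5 lost it too, namely a pseudocount of 0.1, no filter, no trend, robust estimation and a fit of these groups only, with adjusted p up to 0.170.

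The 4 members Reg1, Reg3a, Reg3g and Reg4 were higher in every LGR5-ECD library than in either control, a pattern that 18.2% of all tested genes showed. A lack of overlap in either direction was found for 30.9%. Reg1 averaged 17.4 FPKM in LGR5-ECD and 4.01 FPKM in the controls (log2 change 1.77, 95% interval 0.76 to 2.78, limma adjusted p = 0.109). Reg3a had a log2 change of 1.49 (interval 0.69 to 2.30, adjusted p = 0.0964), again with its entry through this group. The Reg3g change was 1.72 (interval 0.27 to 3.17, adjusted p = 0.232). For Reg3b, where LGR5-ECD replicate 1 lay below control 2, it was 1.33 (interval -0.52 to 3.18, adjusted p = 0.445). The intervals are for 1 gene at a time, so some exclude 0 where the adjusted p does not pass. Over the 5 genes the median change was 1.72, against 0.05 for all tested genes, a description that includes Reg3a.

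**Figure D3:**
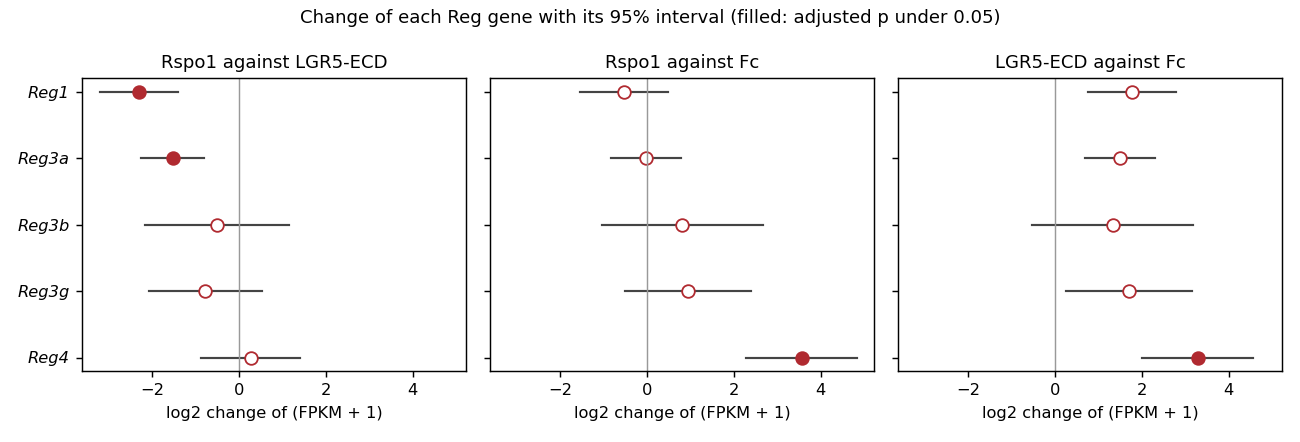
Log2 change of (FPKM + 1) of each Reg gene in the 3 comparisons, with the 95% interval of each single gene. Filled points have an adjusted p under 0.05. The filled points are Reg1 (-2.29) and Reg3a (-1.52) for Rspo1 against LGR5-ECD, and Reg4 for Rspo1 (3.56) and LGR5-ECD (3.29) against Fc.

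In order of level, Reg1, Reg3a, Reg3b and Reg3g had their highest mean in LGR5-ECD. For Reg1 and Reg3a the test separated LGR5-ECD and Rspo1 only, not the control from either treatment. Reg4 was lowest in the control, with the treatments not separated. For Reg3b and Reg3g no pair of groups was separated. Their means were 79.7 and 271.0 FPKM in LGR5-ECD, 72.3 and 155.6 FPKM in Rspo1 and 28.7 and 68.3 FPKM in the control. Libraries of a group differed more for each of the 5 Reg genes than for most genes, and least so for Reg3a. The SD within groups was 1.30 for Reg3b and 1.00 for Reg3g on the log2 scale, larger than for 99.5% and 98.5% of tested genes, whose median SD was 0.32. In Rspo1, Reg3b ranged over 10.5-fold and Reg3g over 3.91-fold. The ratio of Reg3g to Reg3b within a library stayed between 1.72 and 4.97. Reg1 had an SD of 0.64, larger than for 91.5% of tested genes, and Reg3a one of 0.38, larger than for 63.6%. Reg4 had an SD of 0.87, larger than for 97.4%, with its spread mainly between the 2 controls.

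Markers of other cells moved with some of these results, and their part in them was not tested. Enterocyte markers moved with Reg1 and Reg3a: 16 of 20 were called lower in Rspo1 than in LGR5-ECD and 0 higher, and their summed level was 774.0 to 860.2 FPKM in the control, 1469 to 1768 FPKM in LGR5-ECD and 555.0 to 619.4 FPKM in Rspo1. None of the 20 was at 0 in all libraries. As a share of that sum, Reg1 was 0.429% to 0.559% in the control, 0.759% to 1.58% in LGR5-ECD and 0.174% to 0.875% in Rspo1. The shares of the LGR5-ECD and Rspo1 libraries overlapped, which the levels did not. Of all genes tested, 3.54% were called lower in Rspo1 than in LGR5-ECD and 4.92% higher. Goblet and deep secretory markers also moved, with 6 of 19 tested called lower in Rspo1 and 1 higher. Their sum was 405.8 and 1014 FPKM in the controls, 919.7 to 2805 FPKM in LGR5-ECD and 439.3 to 885.3 FPKM in Rspo1.

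Paneth cell markers moved with Reg4 in the comparisons with the control. Of all genes tested, 0.672% were called higher in Rspo1 than in the control and 0.445% in LGR5-ECD. Of 20 Paneth cell markers tested, 10 were called higher in Rspo1, 8 were called higher in LGR5-ECD, and 0 were called lower in either. By sign alone, 20 were higher in Rspo1 and 18 in LGR5-ECD. For Rspo1 against LGR5-ECD, where Reg4 was not called, 3 were called higher and 2 lower. None of the 21 was at 0 in all libraries. Their summed level was 1280 and 205.6 FPKM in the controls, 3523 to 7712 FPKM in LGR5-ECD and 3422 to 5367 FPKM in Rspo1. As a share of that sum, Reg4 was 0.416% in control 1, 0% in control 2, 0.305% to 0.763% in LGR5-ECD and 0.603% to 0.757% in Rspo1. In this share control 1 lay within the range of LGR5-ECD and below that of Rspo1, and control 2 lay below all treated libraries. Control 2 was the lowest library for the Paneth sum too. It listed 5 genes at 0 that were at 5 FPKM or more in each of the other 7 libraries, and Defa5, a Paneth cell defensin, was among them with Reg4 (the others were Gm10104, Gm15315 and Gm21498). LGR5-ECD replicate 3 had 10 genes at 0 by the same measure, and each of the other 6 libraries had 0. Defa5 and these other genes were picked after their values were seen.

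**Figure D4:**
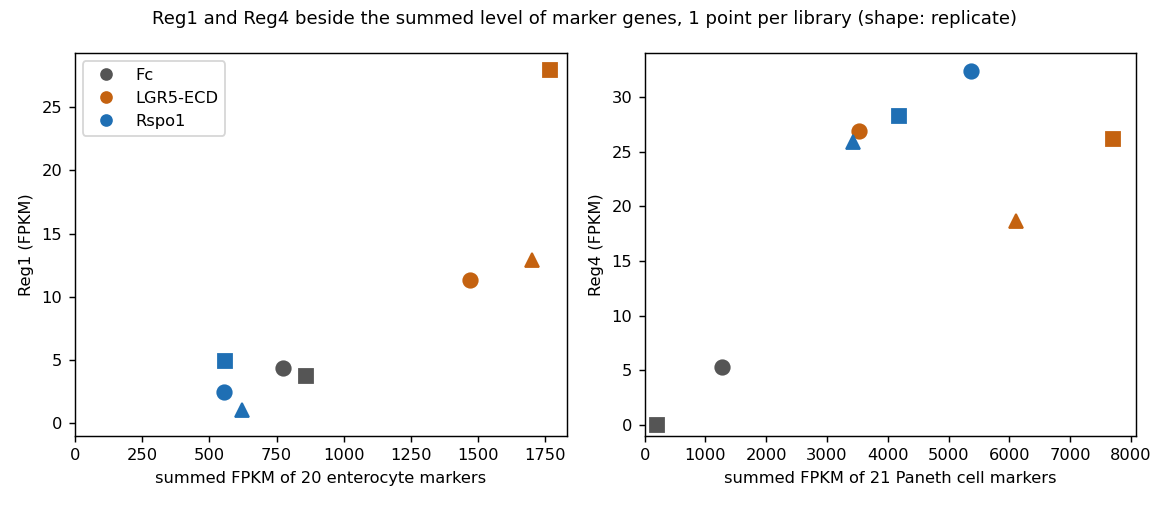
Reg1 against the summed FPKM of 20 enterocyte markers (left) and Reg4 against the summed FPKM of 21 Paneth cell markers (right), 1 point per library. The 3 LGR5-ECD libraries have the highest enterocyte sums (1469 to 1768) and the highest Reg1, and the 2 controls have the lowest Paneth sums (1280 and 205.6) and the lowest Reg4.

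Pancreatic acinar markers were looked at because Reg1 and Reg2 are pancreatic genes. Of 22 such markers 15 were listed at 0 in every library, among them the trypsinogen genes Prss1 and Prss2, the lipase gene Pnlip, the elastase gene Cela3b and the chymotrypsinogen gene Ctrb1. Their summed level was 3.82 and 9.23 FPKM in the controls, 18.7 to 56.5 FPKM in LGR5-ECD and 28.6 to 35.9 FPKM in Rspo1. Most of the sum in both treatments was Pnliprp2, a lipase-related gene. It was at 51.2, 43.5 and 18.3 FPKM in LGR5-ECD and at 21.1, 15.6 and 26.3 FPKM in Rspo1. In the controls it was at 8.20 and 0.0983 FPKM. Of the 4 markers tested, Bhlha15, a transcription factor of secretory cells, was called higher in Rspo1 than in LGR5-ECD (log2 change 1.85, SE 0.37) and than in the control (2.40, SE 0.41), and 0 were called in LGR5-ECD against the control, with 1 higher at an unadjusted p under 0.05. Of the enteroendocrine markers, which can share cells with Reg4, 1 of 12 tested was called higher in LGR5-ECD than in the control, the granule protein gene Chga (log2 change 1.98, SE 0.37). At an unadjusted p under 0.05, 4 were higher and 2 lower there. In Rspo1 against the control 0 were called by limma, with 3 higher and 1 lower at an unadjusted p under 0.05. For Rspo1 against LGR5-ECD 1 of the 12 was called, Neurog3, which was higher in Rspo1 (log2 change 1.33, SE 0.35). The enteroendocrine sum was 21.6 and 155.3 FPKM in the controls, 38.5 to 79.2 FPKM in LGR5-ECD and 31.0 to 60.7 FPKM in Rspo1. It was thus highest in control 2, where Reg4 was at 0, but the ghrelin gene Ghrl held 144.2 FPKM of it. Ghrl was at 7.07 FPKM in control 1 and at most 5.83 FPKM in the treated libraries. The place of control 2 rests on this gene. By sign, 10 of the 12 tested markers were higher in Rspo1 than in the control and 9 in LGR5-ECD.

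Genes of the pathway that induces Reg3b and Reg3g were called at shares near those of all tested genes (8.45% for Rspo1 against LGR5-ECD, 1.25% and 0.716% for Rspo1 and LGR5-ECD against Fc), so the counts say nothing particular to it. The immune cytokine gene Il22 was listed at 0 in all libraries. Among 9 tested receptor and JAK genes, 1 was called for Rspo1 against LGR5-ECD. This was Il17rc, a subunit of the interleukin-17 receptor, which was lower in Rspo1 (log2 change -1.06, SE 0.22). Against the control 0 were called in either treatment, with 1 higher and 1 lower in Rspo1 and 0 in LGR5-ECD at an unadjusted p under 0.05. Il22ra1, the interleukin-22 receptor subunit of epithelial cells, was at 18.2 to 42.5 FPKM over all libraries. Stat3 was at 8.05 to 15.8 FPKM and Myd88 at 23.8 to 41.8 FPKM, and none of these 3 genes was called. Among 17 tested genes of microbial sensing, 1 was called, Nod1, a sensor of bacterial peptidoglycan, which was higher in Rspo1 than in LGR5-ECD (log2 change 1.19, SE 0.29). Against the control 0 of the 17 were called, with 3 higher in Rspo1 and 1 higher in LGR5-ECD at an unadjusted p under 0.05.

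Of all genes tested, 4.92% were called higher and 3.54% lower in Rspo1 than in LGR5-ECD. Of 17 tested genes that respond to interleukin-22 or STAT3, 2 were called higher and 1 lower. These were Pla2g5, a secreted phospholipase (log2 change 2.36, SE 0.32), Tifa (2.00, SE 0.32) and the proline-rich protein gene Sprr2a2 (-1.54, SE 0.40). Pla2g5 was also the 1 call for Rspo1 against the control (2.30, SE 0.36), where 1.25% of all genes tested were called. For LGR5-ECD against the control 0 were called, with 2 higher and 1 lower at an unadjusted p under 0.05. The list medians were -0.04, 0.60 and 0.48 in the order of the comparisons above, against 0.08, 0.16 and 0.05 for all tested genes. S100a8, S100a9, Saa1 and Saa2, which are induced in the inflamed gut, were listed at 0 in all libraries.

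Among 16 tested genes of a list of other antimicrobial proteins and lectins, 4 were called lower and 2 higher in Rspo1 than in LGR5-ECD. Of all genes tested, 3.54% were called lower and 4.92% higher. Dmbt1, a mucosal scavenger protein that binds bacteria, averaged 3565 ± 907.5 FPKM in LGR5-ECD and 492.7 ± 186.0 FPKM in Rspo1 (SD, n = 3 each). Lypd8, which keeps flagellated bacteria from the epithelium, averaged 2495 ± 222.3 and 532.2 ± 145.7 FPKM in the same order (SD, n = 3 each). Both were lower in Rspo1, as was the galectin gene Lgals4 (log2 change -0.97, SE 0.21). The Paneth cell phospholipase gene Pla2g2a was higher in Rspo1 (3.71, SE 0.48). Against the control 3 of the 16 were called higher in Rspo1 (Mmp7, Pla2g2a and Ang4) and 3 in LGR5-ECD (Nupr1, Ang4 and Mmp7), with 0 lower in each. Of all genes tested, 0.672% were called higher in Rspo1 and 0.445% in LGR5-ECD. Nupr1 encodes a nuclear stress-response protein and is neither a lectin nor a secreted antimicrobial protein. Mmp7, the protease that activates defensins, had log2 changes of 2.77 in Rspo1 (SE 0.31) and 2.02 in LGR5-ECD (SE 0.31), and Ang4 of 3.60 and 4.10 (SE 0.63 each). Extl3, a proposed Reg receptor, was at 6.50 to 13.2 FPKM over all libraries and was not called.

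The genes most like each member over the 8 libraries were ranked by Pearson's r of log2(FPKM + 1), as a description of libraries that share their depth and scaling. For Reg4 they were Arl8b (r = 0.985), Defa3, AY761184, Defa17 and Mpzl2 (0.973). Defa3 and Defa17 are alpha-defensin genes: Defa3 was at 34.0 and 0.950 FPKM in the controls, 96.7 to 157.6 FPKM in LGR5-ECD and 170.9 to 277.1 FPKM in Rspo1. For Reg1 they were Pik3c2b (0.981), Ddc, Rrp12, Bmp3 and Sema6d (0.958), and for Reg3a they included Igf2 (0.983), Cep350, Xpnpep2 and Pomt1 (0.955).

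The genes nearest to Reg3b were Cd177 (r = 0.942), Klhl25, Reg3g (0.923), Ces1g and Lrrc8a (0.916). For Reg3g they were Tmem126a (0.963), Cd177 (0.955), Sst, Ralgps1 and Clip2 (0.939). Cd177 stood on both lists, at 3.64 and 3.29 FPKM in the controls, 4.28, 6.06 and 8.57 FPKM in LGR5-ECD and 2.19, 6.11 and 5.77 FPKM in Rspo1. Sst, the gene of the hormone somatostatin, was at 0 and 0.584 FPKM in the controls, 0, 19.8 and 18.6 FPKM in LGR5-ECD and 0.0800, 17.0 and 9.91 FPKM in Rspo1. The 4 libraries with the most Reg3g were also the 4 with the most Sst, namely replicates 2 and 3 of either treatment. Sst was picked for its likeness to Reg3g over these same libraries, so this adds nothing to the correlation.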

How the data were processed

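RNA was sequenced in bulk from sorted cells. The authors deposited 1 table of FPKM values, with 24510 rows and 8 library columns. Cufflinks, TopHat, HTSeq, DESeq2 and mouse build mm9 are named per the submitters' processing notes. Neither versions nor roles are stated, nor the gene annotation or strand handling. The 6 treated columns match single sample titles, and GFP-negative samples were not used here.

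From the table, 27 rows with a date as symbol and 391 repeated rows were dropped, and 89 symbols on several rows were summed. The log2(FPKM + 1) values were fitted with limma 3.58.1 (trend, no covariate, two-sided, Benjamini-Hochberg adjustment) in R 4.3.3 on 8 libraries in 3 groups. The steps were tested on simulated data. Steps between low values did not yield whole reads, since 25.7% to 35.5% of ratios lay on such steps, so no count test was run. Motifs and tables used Python 3.11.15.

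The members and gene lists were chosen with earlier results of these data known. Named are the 5 members, up to 4 called genes with the smallest p per list and comparison, and the 5 most similar genes, leaving out predicted genes and small RNAs; 1 of the genes most similar to Reg3a is not reported here. Il22, Il22ra1, Stat3, Myd88, Extl3, Pnliprp2, Ghrl and the genes named as listed at 0 were added after their values were seen. Lists of tuft and crypt base stem cell markers were also counted: for Rspo1 against LGR5-ECD, 0 of 9 tuft markers were called higher and 2 lower, and 15 of 16 stem cell markers were called higher and 0 lower.

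The alternatives were median-ratio and quantile scaling, a pseudocount of 0.1, no filter or a filter at 5 FPKM, limma without trend or with robust estimation, array weights, fits of the groups compared only, a block of replicate numbers, and fits without each library in turn.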

Additional observations from a re-analysis of the deposited data

How the results depend on the processing

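Counts of calls over all tested genes moved with several settings. Rspo1 against LGR5-ECD gave 968 calls, 1605 with array weights, 586 with the replicate block and 414 to 1035 without 1 library. Rspo1 against Fc gave 143, of which 53.8% were higher, and 293 with quantile normalization (41% higher, and 41% with median-ratio scaling), 74 with a pseudocount of 0.1, 29 with no filter, 89 without trend, 217 with only the groups compared and 24 to 456 without 1 library. LGR5-ECD against Fc gave 82 (62.2% higher, against 48.9% and 48.1% under the scalings), 12 with a pseudocount of 0.1, 4 with no filter, 30 without trend, 54 with robust estimation, 26 with array weights, 4 with only the groups compared and 0 to 175 without 1 library. The median change of all genes for Rspo1 against Fc was 0.16 as deposited and 0.01 under either scaling.

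Reg1 kept its call for Rspo1 against LGR5-ECD under all 10 other settings (-2.71 to -2.22) and in the 8 fits without 1 library. Reg3a lost it with a pseudocount of 0.1 (-3.63) and the replicate block (-1.52, adjusted p = 0.0592), and ranged from -1.80 to -1.38 without 1 library. Reg4 for Rspo1 against Fc was no longer called with a pseudocount of 0.1 (5.29) or no filter (3.56), and ranged from 2.23 to 4.89 without 1 library. For LGR5-ECD against Fc it was not called with a pseudocount of 0.1 (5.01), nor with no filter, without trend, with robust estimation or with only the groups compared (3.29 in each), and ranged from 1.96 to 4.62 without 1 library. Calls of Reg1 and Reg4 held under both scalings. Changes that were not called turned sign for Reg3b with array weights (0.016, Rspo1 against LGR5-ECD) and without Rspo1 replicate 1 (0.52, in a range from -1.11 to 0.52), and for Reg3a in Rspo1 against Fc with array weights (0.062) and in 3 fits without 1 library (-0.33 to 0.28). The cause was not tested. Reg3a has no value with the filter at 5 FPKM.

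Over all tested genes, same-numbered Rspo1 and LGR5-ECD libraries did not deviate together (correlations of -0.02, -0.02 and -0.05). With 3 libraries per group this cannot exclude a pairing by number. Replicate 1 was the low library of both treatments for Reg3b and Reg3g. With the replicate block, Reg3g in Rspo1 against LGR5-ECD had a limma adjusted p of 0.0778, against 0.485 in the main fit. The block is an alternative only, and control columns carry no sample number. With FPKM alone, low values such as those of Reg3a have unknown depth.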
